A study of Rattus norvegicus with 72 samples.

Results

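The rat major histocompatibility complex, called RT1, and the genes that load and regulate its molecules were followed through 72 lung libraries. The set held every gene of the deposited count table whose symbol begins with RT1-, together with Cd74, Ciita, B2m, Tap1, Tap2, Tapbp and Nlrc5. That rule gave 46 of the 30042 genes in the table. They were 29 class I genes, 10 class II genes (symbols beginning RT1-B, RT1-D or RT1-H) and the 7 accessory genes named above. The rule used symbols only and no measured value.

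The lungs came from adult male Sprague-Dawley rats, an outbred strain, that had breathed diesel exhaust particles (DEP) or filtered air in whole-body chambers for 6 hours a day on 4 days. Exposed groups had received 1000 ug/m3 or 200 ug/m3 and were killed 1, 7 or 27 days after the last exposure, and each had a filtered-air group of the same day. The sample names add a letter, H to the 1000 ug/m3 groups and their air group and L to the 200 ug/m3 groups and theirs, and the labels do not explain it. The 12 groups therefore were 1000 ug/m3, air H, 200 ug/m3 and air L at each of the 3 days, with 6 rats in each, 1 library a rat, made from a piece of lung after ribosomal RNA had been removed.

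Class I molecules present peptides from inside the cell to CD8+ T cells, and class II molecules present peptides from taken-up material to CD4+ T cells. Class I chains pair with beta-2-microglobulin, encoded by B2m, and receive peptides through the TAP transporter (Tap1, Tap2) with the help of tapasin (Tapbp); the coactivator Nlrc5 drives class I transcription. Class II alpha and beta chains assemble on the invariant chain (Cd74) under the coactivator Ciita, and are carried in lung mainly by dendritic cells, B cells and macrophages and by type II pneumocytes. RT1-A is the classical class I region of the rat, and RT1-B and RT1-D are the classical class II regions. In bulk lung, fewer cells of a type and less RNA per cell cannot be told apart.

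The stretches before the annotated starts of 8 genes show how alike neighbouring members of the complex are and which short motifs they hold. They are shown for the class II chains RT1-Ba, RT1-Bb, RT1-Da and RT1-Db1 and for the class I neighbours RT1-CE5 and RT1-CE4, whose counts move against each other below, and for Tap1 and Tapbp, whose counts move together. All are from RefSeq in the GRCr8 assembly, 250 bases upstream of the start, written 5′ to 3′ on the strand of the gene. Capitals mark CTGATTGG or its reverse complement CCAATCAG, a Y box match, and GAAA followed after any 2 bases by GAAA, or on the other strand TTTC by TTTC, a match to the core of interferon-stimulated elements.
RT1-Ba (chr20:4576807-4577056, plus strand): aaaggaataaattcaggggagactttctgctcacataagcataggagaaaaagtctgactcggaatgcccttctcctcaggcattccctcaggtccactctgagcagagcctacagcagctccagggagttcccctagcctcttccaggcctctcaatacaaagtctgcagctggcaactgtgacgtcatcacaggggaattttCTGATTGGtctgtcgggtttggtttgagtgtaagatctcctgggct
RT1-Bb (chr20:4604119-4604368, minus strand): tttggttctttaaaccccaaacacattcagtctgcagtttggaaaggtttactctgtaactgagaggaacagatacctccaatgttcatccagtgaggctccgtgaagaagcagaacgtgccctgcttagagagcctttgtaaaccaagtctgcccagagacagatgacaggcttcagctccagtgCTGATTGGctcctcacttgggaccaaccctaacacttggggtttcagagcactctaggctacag
RT1-Da (chr20:4515165-4515414, plus strand): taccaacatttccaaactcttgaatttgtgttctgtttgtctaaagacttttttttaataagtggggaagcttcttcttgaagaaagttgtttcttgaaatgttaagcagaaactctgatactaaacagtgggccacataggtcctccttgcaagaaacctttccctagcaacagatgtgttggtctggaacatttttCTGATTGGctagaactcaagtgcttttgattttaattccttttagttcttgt
RT1-Db1 (chr20:4560163-4560412, minus strand): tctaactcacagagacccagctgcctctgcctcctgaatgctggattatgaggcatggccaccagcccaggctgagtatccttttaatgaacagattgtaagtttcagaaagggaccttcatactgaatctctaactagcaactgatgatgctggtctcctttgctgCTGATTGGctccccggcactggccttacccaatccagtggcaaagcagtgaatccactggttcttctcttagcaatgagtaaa
RT1-CE5 (chr20:3484091-3484340, minus strand): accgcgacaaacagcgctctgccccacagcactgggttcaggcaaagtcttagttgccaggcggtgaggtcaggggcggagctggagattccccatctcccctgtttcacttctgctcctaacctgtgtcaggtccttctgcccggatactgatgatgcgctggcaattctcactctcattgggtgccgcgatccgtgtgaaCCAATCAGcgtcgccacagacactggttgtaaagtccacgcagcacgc
RT1-CE4 (chr20:3509157-3509406, minus strand): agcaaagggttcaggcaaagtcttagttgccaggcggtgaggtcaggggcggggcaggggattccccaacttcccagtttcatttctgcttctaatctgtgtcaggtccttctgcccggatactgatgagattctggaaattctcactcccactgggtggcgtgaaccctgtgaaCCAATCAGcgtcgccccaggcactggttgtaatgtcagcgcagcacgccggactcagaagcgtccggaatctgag
Tap1 (chr20:4668544-4668793, minus strand): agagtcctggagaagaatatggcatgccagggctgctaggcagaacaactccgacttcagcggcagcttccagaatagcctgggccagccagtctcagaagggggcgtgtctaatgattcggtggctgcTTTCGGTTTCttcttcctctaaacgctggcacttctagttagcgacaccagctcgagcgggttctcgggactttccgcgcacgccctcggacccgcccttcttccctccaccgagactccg
Tapbp (chr20:4967878-4968127, minus strand): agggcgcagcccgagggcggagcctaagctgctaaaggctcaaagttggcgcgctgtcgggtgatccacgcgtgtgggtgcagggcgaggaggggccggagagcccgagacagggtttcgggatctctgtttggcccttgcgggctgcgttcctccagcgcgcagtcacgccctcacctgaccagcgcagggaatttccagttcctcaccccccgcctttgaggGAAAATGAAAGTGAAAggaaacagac

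Both strands of each 300-base window, which adds 50 bases after the start, were searched. CTGATTGG was in 15 of the 39 members with a window, against 3.5% of 33469 promoters. It was in 7 of 9 class II windows, 8 of 25 class I windows and 0 of 5 accessory windows. The GAAA pair was in 7 of 39 members, against 3.92% of promoters, namely in B2m, Tap1, Tap2 and Tapbp and in the class I genes RT1-N3, RT1-S2 and RT1-S3. The longest stretches shared by a pair of windows were 71 bases in RT1-A1 and RT1-A2, 70 bases in RT1-M6-1 and RT1-M6-2, and 46 bases in RT1-CE4 and RT1-CE5 and in RT1-T24-1 and RT1-T24-3. A match is a description of these letters in one assembly, of an inbred strain, and not a site. RT1-CE7, RT1-DMb, RT1-M1-4, RT1-M2, RT1-M4, Ciita and Nlrc5 had no window.

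Values are counts per 1000000 of the library (CPM), scaled by the trimmed mean of M values (TMM). Without 3 shallow libraries, totals ran from about 1042340 to 2397970 counts at day 1, from 3471130 to 6279760 at day 7 and from 3761630 to 6520180 at day 27, so low members are measured with more error at day 1. The 3 shallow libraries, each of a 1000 ug/m3 rat, were animal 37 of day 7 with 105453 counts and animals 24 and 45 of day 27 with 439393 and 149004 counts. The lung markers Sftpc, Ager, Scgb1a1 and Cldn5, summed, lay between 7204.5 and 12635.4 CPM in all libraries. Animal numbers differ between all groups, and each replicate is a separate rat. The numbers of the H rats, exposed and air, fall into 2 series, of 4 and 2 rats a group, whose meaning the labels do not give.

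Among the class I genes the counts were held by a few. Averaged over libraries, RT1-S3 made up 25.4% of the class I sum, RT1-CE5 10.6%, RT1-T24-3 9.95%, RT1-CE7 9.84%, RT1-A2 9.25% and RT1-A1 6.73%. These are shares of counts, which also depend on gene length. Of the 10 RT1-M genes, 8 had a median under 1 CPM, and RT1-M1-5 had no count in any library. The other two were RT1-M2, with a median of 2.02 CPM over the 69 deeper libraries, and RT1-M3-1, whose mouse counterpart presents formylated peptides, with a median of 35.1 CPM and a range of 21.5 to 47.1 CPM. Across the class, 11 of 29 class I genes had a median under 1 CPM. In the exposed-against-air comparisons 19 class I genes passed the filter on low counts at 1 day or more, so the statements on tests below leave out 10 of the 29.

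Among the class II genes RT1-Da, the alpha chain of the D molecule, made up 56.9% of the counts. RT1-Bb, the beta chain of the B molecule, held 18.4%, its partner RT1-Ba 13.5% and RT1-Db1 6.42%. RT1-DOa and RT1-DOb, which encode the modulator of peptide exchange, had medians of 6.94 and 9.36 CPM, and RT1-DMa and RT1-DMb, which encode the exchange factor, 1.69 and 3.29 CPM. RT1-Db2 and RT1-Ha stayed under 1 CPM at the median. Of the 10 class II genes, 8 were tested at days 7 and 27 and 6 at day 1. All 7 accessory genes were tested in each comparison.

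Class I and class II sums of exposed and air lungs overlapped in every pair with all libraries kept, and the class II pair of 1000 ug/m3 and air H at day 27 did not overlap without the 2 shallow libraries of that day. At day 1 the class I sum was 588, 661 and 751 CPM (lowest, median and highest) in the 1000 ug/m3 lungs, against 462, 612 and 884 CPM in the air H lungs. It was 486, 698 and 874 CPM in the 200 ug/m3 lungs, against 662, 836 and 904 CPM in the air L lungs. The 200 ug/m3 median was the lower of its pair and the 1000 ug/m3 median the higher of its pair. The class II sum at day 1 was 309, 449 and 789 CPM in the 1000 ug/m3 lungs, against 429, 460 and 679 CPM in the air H lungs. In the 200 ug/m3 lungs it was 444, 473 and 589 CPM, against 549, 618 and 788 CPM in the air L lungs, with an overlap between 549 and 589 CPM.

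At day 7 the class I sum had medians of 618 CPM in the 1000 ug/m3 lungs and 688 CPM in the air H lungs, and of 710 CPM in the 200 ug/m3 lungs and 619 CPM in the air L lungs. The class II sum at day 7 had medians of 528 CPM in the 1000 ug/m3 lungs and 458 CPM in the air H lungs, and of 468 CPM in the 200 ug/m3 lungs and 548 CPM in the air L lungs. All 4 pairs overlapped in range. At day 27 the class II sum was 452, 501 and 573 CPM in the 1000 ug/m3 lungs, against 531, 574 and 601 CPM in the air H lungs. Without the shallow animals 24 and 45 it was 452, 470 and 530.7 CPM in the 1000 ug/m3 lungs, just under the lowest air H lung at 531.0 CPM, so the overlap rests on shallow libraries. It was 348, 465 and 566 CPM in the 200 ug/m3 lungs, against 435, 489 and 644 CPM in the air L lungs. The class I medians at day 27 were 658 CPM in the 1000 ug/m3 lungs and 679 CPM in the air H lungs, and 701 CPM in the 200 ug/m3 lungs and 714 CPM in the air L lungs.

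**Figure D1:**
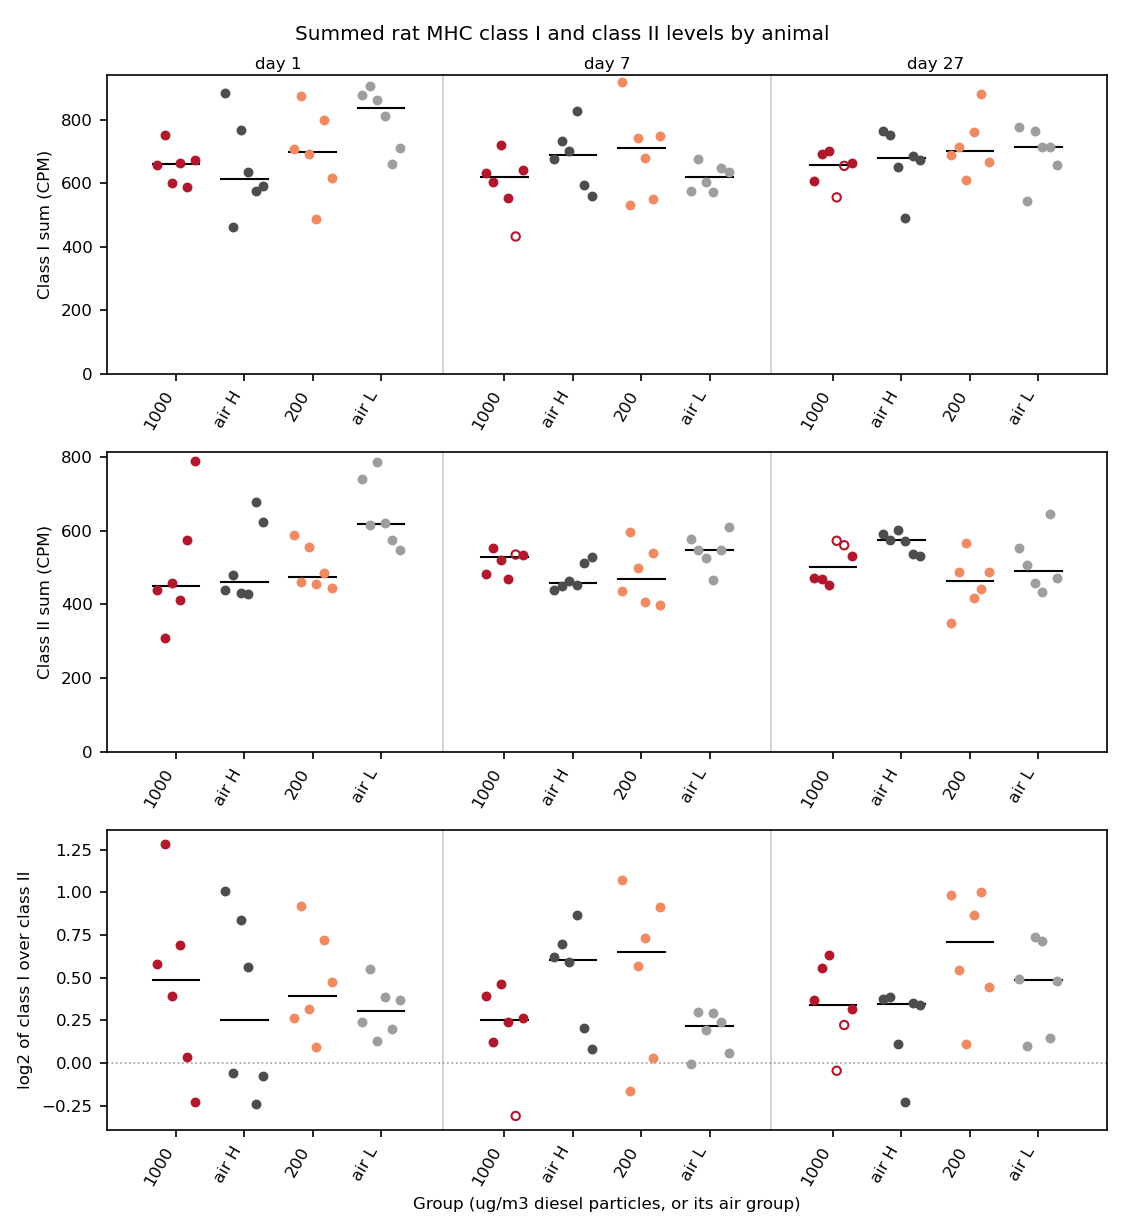
Summed class I and class II levels in TMM-scaled CPM for each of the 72 lungs, by group and day, with a point for each rat, an open circle for a shallow library and a line at the group median; the lowest panel gives the log2 of their ratio. With all libraries the exposed and air points of each pair overlap, but the class II points of 1000 ug/m3 and air H at day 27 do so only through open circles; at day 1 the class I medians are 661 CPM in the 1000 ug/m3 lungs and 612 CPM in the air H lungs.

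The balance between the classes, as the log2 of the class I sum over the class II sum, was compared by its mean and the pooled within-group SD, with no test. The mean of the exposed lungs minus that of the air lungs was 0.12 for 1000 ug/m3 and 0.15 for 200 ug/m3 at day 1, against pooled SDs of 0.53 and 0.24. At day 7 the 1000 ug/m3 lungs averaged 0.20 and the air H lungs 0.51, a difference of −0.32 with a pooled SD of 0.29. Without the shallow library of animal 37 the 1000 ug/m3 mean was 0.30. The 200 ug/m3 lungs averaged 0.53 and the air L lungs 0.18 at day 7, a difference of 0.34 with a pooled SD of 0.36. At day 27 the differences were 0.12 for 1000 ug/m3 and 0.21 for 200 ug/m3, both smaller than their pooled SDs of 0.24 and 0.32. Without the shallow libraries the 1000 ug/m3 difference at day 27 was 0.245. The SD was then 0.149 in the 4 remaining 1000 ug/m3 lungs and 0.242 in the 6 air H lungs, both below that difference. The day 7 differences at the 2 doses had opposite signs, and each air group holds 6 rats.

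In all 6 pairs of exposed and air groups, 0 members passed. The test was edgeR's quasi-likelihood F test over all genes, with Benjamini-Hochberg adjusted p of 0.05 as the threshold, and over all genes it called 0% at 1000 ug/m3 on day 1, 0% at 200 ug/m3 on day 1, 0% at 1000 ug/m3 on day 7, 0.00698% at 200 ug/m3 on day 7, 0% at 1000 ug/m3 on day 27 and 0% at 200 ug/m3 on day 27. DESeq2 also called 0 members in each. At 200 ug/m3 on day 27 it gave an adjusted p to only 1620 genes and called 0.741% of them. Members without an adjusted p could not be called there, so that 0 says little. At an unadjusted p under 0.05 there were 2 of 28 members for 1000 ug/m3 at day 1, against 3.41% of all genes, and 7 of 28 for 200 ug/m3, against 6.02%. At day 7 there were 3 of 34 for 1000 ug/m3, against 4.39% of all genes, and 9 of 34 for 200 ug/m3, against 5.71%. At day 27 there were 2 of 33 for 1000 ug/m3, against 7% of all genes, and 0 of 33 for 200 ug/m3, against 9.69%. The share of members under that limit at 200 ug/m3 was thus 25% at day 1 and 26.5% at day 7. Members were measured in the same lungs and may share reads, which was not tested, so they are not separate pieces of evidence. For the adjusted threshold the background is so low that a count of 0 says nothing particular about these genes.

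The median log2 fold changes of the tested class I genes, exposed over air, were 0.03 for 1000 ug/m3 and −0.21 for 200 ug/m3 at day 1, 0.01 and 0.02 at day 7, and 0.03 and 0.07 at day 27. Those of the class II genes were 0.02 and −0.23 at day 1, 0.17 and −0.23 at day 7, and −0.29 and −0.06 at day 27. Accessory genes had −0.03 and −0.03 at day 1, −0.05 and −0.14 at day 7, and −0.02 and −0.06 at day 27. The medians over all tested genes lay within 0.01 of 0. Medians over members describe these lungs, and no test is attached to them.

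**Figure D2:**
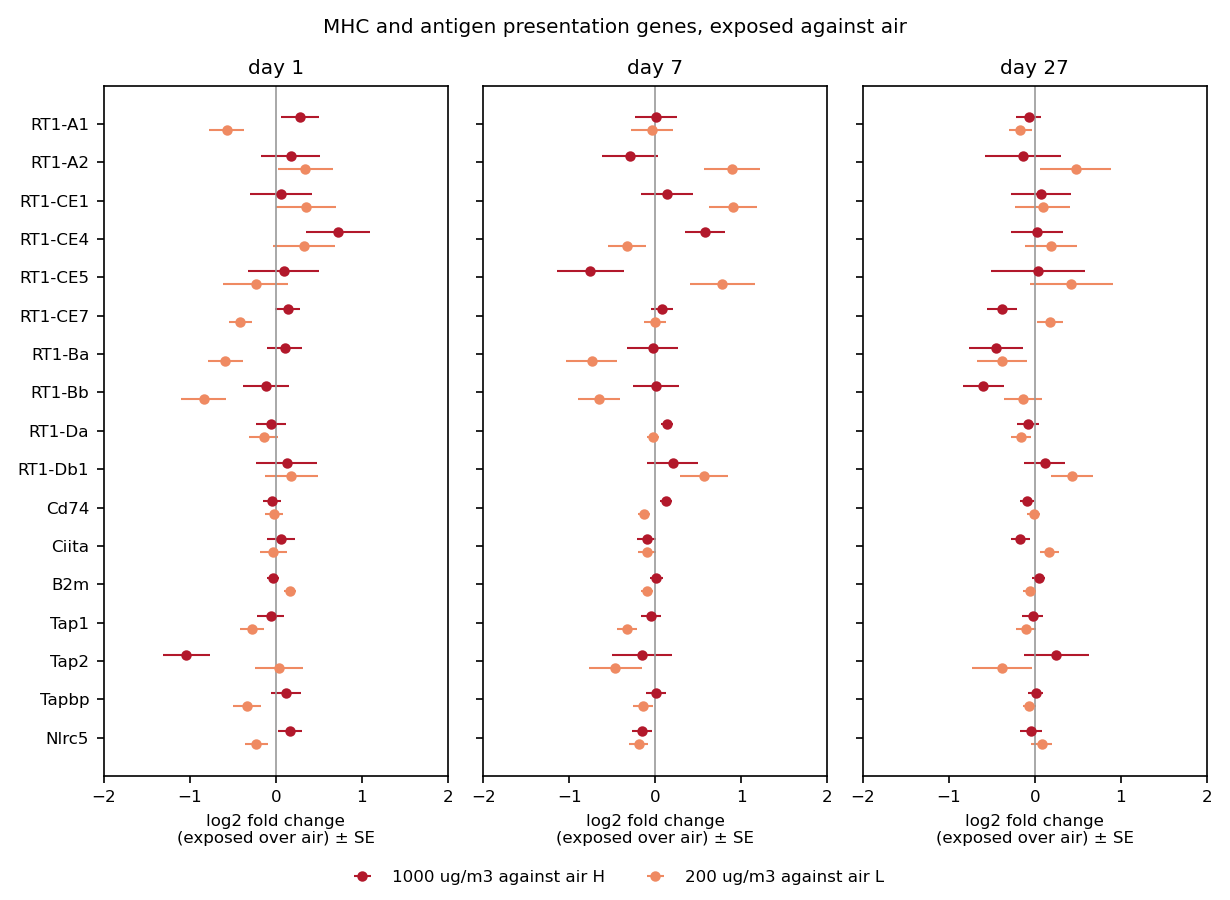
Log2 fold changes of exposed over air lungs with their SE for the members given in every comparison, at 1000 and 200 ug/m3 and on days 1, 7 and 27. No member passed the adjusted threshold, and the point farthest below 0 at day 1 is Tap2 at 1000 ug/m3, at −1.04.

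Among the peptide transport genes, Tap2 at day 1 had 2.35, 6.15 and 7.80 CPM in the 1000 ug/m3 lungs, against 7.36, 12.5 and 19.6 CPM in the air H lungs. The lungs overlapped only between 7.36 and 7.80 CPM. The log2 fold change was −1.04 ± 0.28 (SE, n = 6 each) with an edgeR adjusted p of 1.00. Its partner Tap1 had 55.0, 57.9 and 76.9 CPM in the 1000 ug/m3 lungs, against 47.9, 63.0 and 75.7 CPM in the air H lungs, with a log2 fold change of −0.06. B2m had a log2 fold change of 0.16 ± 0.07 for 200 ug/m3 against air L at day 1, with a 95% interval of 0.02 to 0.31 before adjustment.

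Among the class II chains, RT1-Bb at day 1 had 88.5, 122 and 141 CPM in the 200 ug/m3 lungs, against 173, 186 and 270 CPM in the air L lungs. The groups did not overlap. The log2 fold change was −0.84 ± 0.26 (SE, n = 6 each), with an edgeR adjusted p of 0.656. RT1-Ba, the partner chain, had 50.9, 62.9 and 78.7 CPM in the 200 ug/m3 lungs, against 77.5, 88.6 and 120 CPM in the air L lungs, a log2 fold change of −0.59. At day 7 the log2 fold changes of 200 ug/m3 against air L were −0.74 for RT1-Ba and −0.65 for RT1-Bb. In animals 76 and 78 of that 200 ug/m3 group RT1-Ba was 17.6 and 13.2 CPM and RT1-Bb 28.6 and 29.9 CPM. The highest lung of the group had 76.2 CPM of RT1-Ba, and the highest for RT1-Bb had 102 CPM. None of these fold changes passed the test with 4 groups in the fit. With only the 200 ug/m3 and air L lungs of day 1 in it, RT1-Bb passed. The same chains at 1000 ug/m3 were near 0 at day 1, at 0.10 for RT1-Ba and −0.11 for RT1-Bb, and at day 7, at −0.03 and 0.01.

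RT1-Bb at day 27 had 39.7, 67 and 112 CPM in the 1000 ug/m3 lungs, against 69.5, 87.2 and 114 CPM in the air H lungs, with a log2 fold change of −0.60 ± 0.24 (SE, n = 6 each; edgeR adjusted p = 0.663). The 112 CPM came from a shallow library: without animals 24 and 45 the 1000 ug/m3 lungs had 39.7, 62.03 and 67.6 CPM, all below the air H lungs, and the log2 fold change was −0.65 (edgeR adjusted p = 0.686). RT1-Da, the D alpha chain, did not pass in any of the 6 comparisons, with log2 fold changes between −0.16 and 0.14. Cd74 lay between −0.13 and 0.13 in them and Ciita between −0.17 and 0.17. For RT1-Da at 200 ug/m3 on day 27 the 95% interval was −0.41 to 0.09, and for Cd74 at 1000 ug/m3 on day 7 it was −0.01 to 0.26.

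Among the class I genes the smallest p at 200 ug/m3 on day 7 was for RT1-CE10, a C/E gene, with 10.1, 23.7 and 32.9 CPM in the 200 ug/m3 lungs, against 5.20, 11 and 18.0 CPM in the air L lungs. The log2 fold change was 0.99 ± 0.30 (SE, n = 6 each; edgeR adjusted p = 0.629). At day 1 RT1-CE10 had 7.71, 21.3 and 35.5 CPM in the 200 ug/m3 lungs, against 5.76, 8.93 and 17.9 CPM in the air L lungs, a log2 fold change of 1.04 ± 0.32 (SE, n = 6 each; edgeR adjusted p = 0.627). The groups overlapped on both days. At 200 ug/m3 and day 7, RT1-A2 and RT1-CE1 both had a log2 fold change of 0.90. RT1-CE4 had the smallest p at 1000 ug/m3 on day 7, with 19.3, 42.4 and 49.4 CPM in the 1000 ug/m3 lungs and 21.1, 23.4 and 36.4 CPM in the air H lungs, a log2 fold change of 0.58. At 200 ug/m3 on day 27 the smallest p was for RT1-Db1, at a log2 fold change of 0.43.

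With both air groups of a day as the control, 1 member passed at 1000 ug/m3 on day 7, RT1-N3, which was lower, and 3 members passed at 200 ug/m3 on day 7, namely RT1-CE1 and RT1-CE10, which were higher, and Tap1, which was lower. Over all genes that control called 9.37% at 1000 ug/m3 and 8.26% at 200 ug/m3 on day 7. Of the 34 members it called 2.94% and 8.82%. The first share was below the background and the second was close to it. Air groups differed between the letters at that day, as described below. The difference between the effects of 1000 and 200 ug/m3 was called for 0 members on each day, against 0.00813% of all genes at day 1, 0% at day 7 and 0% at day 27. At an unadjusted p under 0.05 it held 6 of 28 members at day 1, against 4.36% of all genes, 9 of 34 at day 7, against 5.21%, and 2 of 33 at day 27, against 13.3%, in edgeR, and DESeq2 called 0 members on each day. At day 27 DESeq2 gave an adjusted p to only 5240 genes and called 0.649% of them, so members without one could not be called. The smallest p at day 1 belonged to RT1-CE7, with a difference of log2 fold changes of 0.55, and that at day 7 to RT1-S2, with 2.66.

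Over all 3 days and both doses, exposed against air lungs, 0 of 34 members passed edgeR's test, against 0.0134% of all genes; 7 were under an unadjusted p of 0.05, against 5.06% of all genes, and DESeq2 called 0. RT1-Bb had the smallest p, at −0.39, with an edgeR adjusted p of 0.514. No gene of the lists of peptide supply, class II loading, interferon factors and co-stimulation passed in these 6 pairs, nor did any marker of B cells, dendritic cells, macrophages, T cells or NK cells.

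The air groups of the letters H and L differed from each other in several of these genes. At day 1, 4 of 28 members were lower in air H, against 1.68% of all genes called: RT1-A1, RT1-CE7, Tap1 and Tapbp. RT1-A1, a classical class I gene, had 28.2, 35.6 and 60.4 CPM in the air H lungs and 42.5, 73.1 and 112 CPM in the air L lungs, a log2 fold change of −0.95 ± 0.20 (SE, n = 6 each; edgeR adjusted p = 0.0277). RT1-CE7 had 44.6, 53.6 and 61 CPM in the air H lungs and 72.0, 78.9 and 88.5 CPM in the air L lungs, with no overlap and a log2 fold change of −0.61 ± 0.13 (adjusted p = 0.0242 in edgeR). The other groups of values overlapped.

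Tap1 had 47.9, 63.0 and 75.7 CPM in the air H lungs and 66.2, 111 and 120 CPM in the air L lungs at day 1, a log2 fold change of −0.67 (edgeR adjusted p = 0.0236). Tapbp had 59.6, 73.1 and 91.2 CPM in the air H lungs and 84.2, 120 and 161 CPM in the air L lungs, also a log2 fold change of −0.67 (edgeR adjusted p = 0.0414). The count rests on few lungs, and the calls over all genes fell in the same fits. Without air H animal 2 or 4, 0 members were called, against 0.162% and 0.0161% of all genes. Without air L animal 49, 51 or 52, 0 members were called, against 0.0404%, 0.0403% and 0.233% of all genes. Without air L animal 50, 2 members were called, RT1-A1 and RT1-CE7, against 0.436% of all genes. DESeq2 called 5 members, against 6.16% of all genes. Of the lists, interferon factors had 0 higher and 3 lower of 16 tested in air H, among them Irf7 at −0.82 and Oas1a at −0.90, and peptide supply had 2 higher, Calr at 0.30 and Pdia3 at 0.34, and 1 lower, Psmb10 at −0.97. Co-stimulation had 1 lower of 3, and among the marker lists type II pneumocytes had 1 lower of 6; their part in the result was not tested.

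At day 7, 3 of 34 members were lower in air H, against 25.5% of all genes, a smaller share than the background. Cd74, the invariant chain, had 793, 922 and 953 CPM in the air H lungs and 985, 1095 and 1171 CPM in the air L lungs, with no overlap and a log2 fold change of −0.25 ± 0.06 (SE, n = 6 each; edgeR adjusted p = 0.00401). RT1-Bb had 44.3, 55.0 and 67.1 CPM in the air H lungs and 63.9, 109 and 126 CPM in the air L lungs, a log2 fold change of −0.86 (edgeR adjusted p = 0.0132). RT1-DMb had 1.44, 1.78 and 3.29 CPM in the air H lungs and 2.1, 6.35 and 7.76 CPM in the air L lungs, a log2 fold change of −1.28 with an edgeR adjusted p of 0.05, just under the threshold. The count was 5 without air H animal 33, 7 with only the groups compared in the fit, 2 without the shallow libraries, where RT1-DMb was lost, and 4 in DESeq2. Over all genes these settings called 27.1%, 29.7%, 26.8% and 22.7%, in the same order. Interferon factors had 2 higher and 5 lower of 16 tested in air H. Ctsl and Ctss, proteases that process the invariant chain, were higher in air H at 0.36 and 0.32, and peptide supply had 2 higher and 1 lower of 10. Of the markers of cells that carry class II, type II pneumocytes had 2 lower of 6 tested in air H, Nkx2-1 at −0.64 and Sftpb at −0.28, and dendritic cells had Ccr7 higher at 0.44 and Zbtb46 lower at −0.78 of 7. B cell markers had 0 called. Of other cell types, T cells had 1 lower of 5, type I pneumocytes 1 higher and 2 lower of 4, club cells 1 lower of 3, endothelium 1 higher and 1 lower of 4 and red blood cells 1 higher of 3. Their part in the result was not tested.

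At day 27, 2 of 33 members were higher in air H, against 14% of all genes. RT1-Db1, the D beta chain, had 27.9, 46.2 and 53.4 CPM in the air H lungs and 19.5, 21.2 and 30.9 CPM in the air L lungs, a log2 fold change of 0.92 ± 0.24 (SE, n = 6 each; edgeR adjusted p = 0.0125). Ciita, the class II coactivator, had 38.7, 45.5 and 57.2 CPM in the air H lungs and 28.0, 38.7 and 43.4 CPM in the air L lungs, a log2 fold change of 0.31 ± 0.11 (SE, n = 6 each; edgeR adjusted p = 0.0429). Both pairs overlapped. Only RT1-Db1 was called in DESeq2, with other filters on low counts, and without air H animal 17, 20, 41 or 42 or air L animal 81, 84 or 87. Over all genes DESeq2 called 15% and the other filters 12.7% and 7.12%. The fits without 1 of these rats called 10.2% to 14% of all genes. Of the lists, peptide supply had 0 higher and 2 lower of 10 tested in air H, class II loading 1 lower of 7, and interferon factors 1 higher of 16. Of the marker lists, type II pneumocytes had 1 higher of 6, club cells 1 lower of 3, endothelium 1 higher and 1 lower of 4 and red blood cells 1 higher of 3, and their part in the result was not tested.

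Between the exposed groups, 1000 against 200 ug/m3, members were called at day 7 only, but the dose goes with the letter, so dose and letter cannot be told apart. At day 1 and at day 27, 0% of all genes and 0 members were called by edgeR; 2 of 28 members at day 1, against 12.5% of all genes, and 3 of 33 at day 27, against 7.36%, were under an unadjusted p of 0.05, and DESeq2 called 0 on both days. At day 7, 4 members were higher and 3 lower of 34, against 27.9% of all genes. Higher in the 1000 ug/m3 lungs were Tap1, B2m, Tapbp and RT1-DOb, and lower were RT1-N3, RT1-CE3 and RT1-CE10. Without 200 ug/m3 animal 78 the count was 4, of B2m, RT1-N3, Tap1 and Tapbp, with only the groups compared in the fit it was 3, without the shallow libraries 6, with RT1-CE10 lost, and in DESeq2 8. Over all genes these settings called 25.6%, 22.4%, 29.2% and 24.6%, in the same order.

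Tap1 at day 7 had 80.8, 88.6 and 95.2 CPM in the 1000 ug/m3 lungs, against 39.5, 61.1 and 79.4 CPM in the 200 ug/m3 lungs. The groups did not overlap, and the log2 fold change was 0.53 ± 0.12 (SE, n = 6 each; edgeR adjusted p = 0.00121). B2m had 1886, 2083 and 2555 CPM in the 1000 ug/m3 lungs, against 1505, 1758 and 1989 CPM in the 200 ug/m3 lungs, a log2 fold change of 0.28 ± 0.07 (edgeR adjusted p = 0.00519). Tapbp had 51.8, 116 and 137 CPM in the 1000 ug/m3 lungs, its lowest in the shallow animal 37, against 53.7, 97 and 108 CPM in the 200 ug/m3 lungs, a log2 fold change of 0.36 ± 0.12 (edgeR adjusted p = 0.0225). These ranges overlapped. RT1-DOb had 7.55, 12.2 and 14.4 CPM in the 1000 ug/m3 lungs, against 4.62, 7.61 and 13.1 CPM in the 200 ug/m3 lungs, a log2 fold change of 0.57 ± 0.20 (edgeR adjusted p = 0.0304). RT1-N3 had 17.3, 25.7 and 30.2 CPM in the 1000 ug/m3 lungs, against 29.7, 33.4 and 41 CPM in the 200 ug/m3 lungs, a log2 fold change of −0.36 (edgeR adjusted p = 0.0142). RT1-CE3 had 0, 0.295 and 2.45 CPM in the 1000 ug/m3 lungs, against 0.424, 4.26 and 16.9 CPM in the 200 ug/m3 lungs, a log2 fold change of −2.82 (edgeR adjusted p = 0.0147). This gene is near the floor, with 3 or fewer counts in 34 of the 72 libraries. Its 16.9 CPM came from animal 78, and the others of that group reached 6.54 CPM. RT1-CE10 had 6.26, 12.6 and 16.4 CPM in the 1000 ug/m3 lungs, against 10.1, 23.7 and 32.9 CPM in the 200 ug/m3 lungs, a log2 fold change of −0.82 (edgeR adjusted p = 0.0466). The 3 lower genes overlapped between the groups.

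Of the peptide supply genes at day 7, 4 of 10 were higher and 1 lower in the 1000 ug/m3 lungs than in the 200 ug/m3 lungs, with Psme2, a proteasome activator, at 0.31 and Tapbpl, a tapasin relative, at 0.31. Interferon factors had 5 higher and 3 lower of 16, with Irf1 at 0.33 and Irf2 at −0.77. Class II loading had 2 higher of 7, Ctsl at 0.27 and Ctss at 0.42, and co-stimulation 1 higher of 5, Cd83 at 0.45. B cell markers had 3 higher and 0 lower of 6 tested, and their summed level was 62.7 to 104 CPM in the 1000 ug/m3 lungs and 42.8 to 63.0 CPM in the 200 ug/m3 lungs, over all 7 listed markers. Without the shallow animal 37 the highest 1000 ug/m3 lung had 82.5 CPM, and the ranges overlapped between 62.7 and 63.0 CPM. Dendritic cell markers had 0 higher and 1 lower of 7, Zbtb46 at −0.55, interstitial macrophages 1 higher of 6, C1qc at 0.51, and type II pneumocytes 1 lower of 6, Nkx2-1 at −0.50. Type I pneumocytes had 2 higher and 1 lower of 4, club cells 1 higher of 3, endothelium 1 higher and 2 lower of 4, among them Cdh5 at −0.73, and red blood cells 2 higher of 3. The mouse and human counterparts of RT1-DOb are known from B cells, and the part of B cells and of the other cell types in the result was not tested.

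Over days, in air lungs of both letters together, 5 of 34 members differed between day 7 and day 1, against 33.2% of all genes; day and depth cannot be told apart here. RT1-Bb was lower at day 7: in air H it had 44.3, 55.0 and 67.1 CPM at day 7, against 80.0, 140 and 198 CPM at day 1, and in air L 63.9, 109 and 126 CPM at day 7, against 173, 186 and 270 CPM at day 1. Neither letter's ranges overlapped. The log2 fold change was −1.21 ± 0.17 (SE, n = 12 each; edgeR adjusted p = 3.9e-08). Ciita was lower at −0.23, and RT1-CE4, B2m and Cd74 were higher at 0.67, 0.21 and 0.15. DESeq2 called 5, with RT1-A1 in place of Cd74, and 4 members were called without the shallow libraries, with Cd74 lost. Over all genes these settings called 28.6% and 33.5%. Of the lists, peptide supply had 5 higher and 2 lower of 10, class II loading 4 higher of 7 and interferon factors 3 higher and 4 lower of 16. Of the marker lists, NK cells had 3 higher of 6, Klrb1a at 0.68, Nkg7 at 0.66 and Gzma at 0.58, and T cells 2 lower of 5, Cd3g at −1.29 and Cd4 at −0.33. Type II pneumocytes had 2 higher and 1 lower of 6, with Sftpc at 0.66, type I pneumocytes 2 higher of 4, club cells 1 lower of 3, dendritic cells 1 lower of 7, endothelium 1 higher and 1 lower of 4 and red blood cells 1 lower of 3. Their part in the result was not tested.

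The partner chain RT1-Ba did not pass in that comparison. The count of RT1-Bb over that of RT1-Ba averaged 1.65 in the 1000 ug/m3 lungs, 2.0 in air H, 1.82 in the 200 ug/m3 lungs and 2.17 in air L at day 1. At day 7 it averaged 0.924 in the 1000 ug/m3 lungs, 0.730 in air H, 1.56 in the 200 ug/m3 lungs and 1.31 in air L. At day 27 it averaged 1.26 in the 1000 ug/m3 lungs, 1.28 in air H, 1.24 in the 200 ug/m3 lungs and 0.939 in air L. Without the shallow libraries the mean of the 1000 ug/m3 lungs was 0.748 at day 7, near that of air H, and 1.20 at day 27. Between day 27 and day 7 of the air lungs, 0 of 34 members passed edgeR's test, against 9.39% of all genes; 1 was under an unadjusted p of 0.05, against 23.2% of all genes, namely Nlrc5 at 0.23, and DESeq2 called 0.

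Variation between rats of one group was wide for many RT1 genes. The within-group SD of log2(CPM + 0.5) was 1.61 for RT1-S2, 1.54 for RT1-N2, 1.41 for RT1-CE6, 1.23 for RT1-T24-4 and 1.19 for RT1-CE3, where genes within a factor of 2 in level had medians of 0.52 for RT1-S2, 0.24 for RT1-N2 and 0.68 for RT1-CE6. RT1-CE5 had 0.80 and RT1-A2 0.62, where like-level genes had 0.17. Class II RT1-Ba had 0.52, RT1-Db1 0.51 and RT1-Bb 0.45, against 0.17 for genes near RT1-Ba in level. RT1-Da had 0.23, above 94.8% of genes of like level, and Cd74 0.16, above 73.5% of them. B2m had 0.13, above 50% of genes of like level, whose median was 0.13 for all 3. The median over 14956 genes was 0.242.

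**Figure D3:**
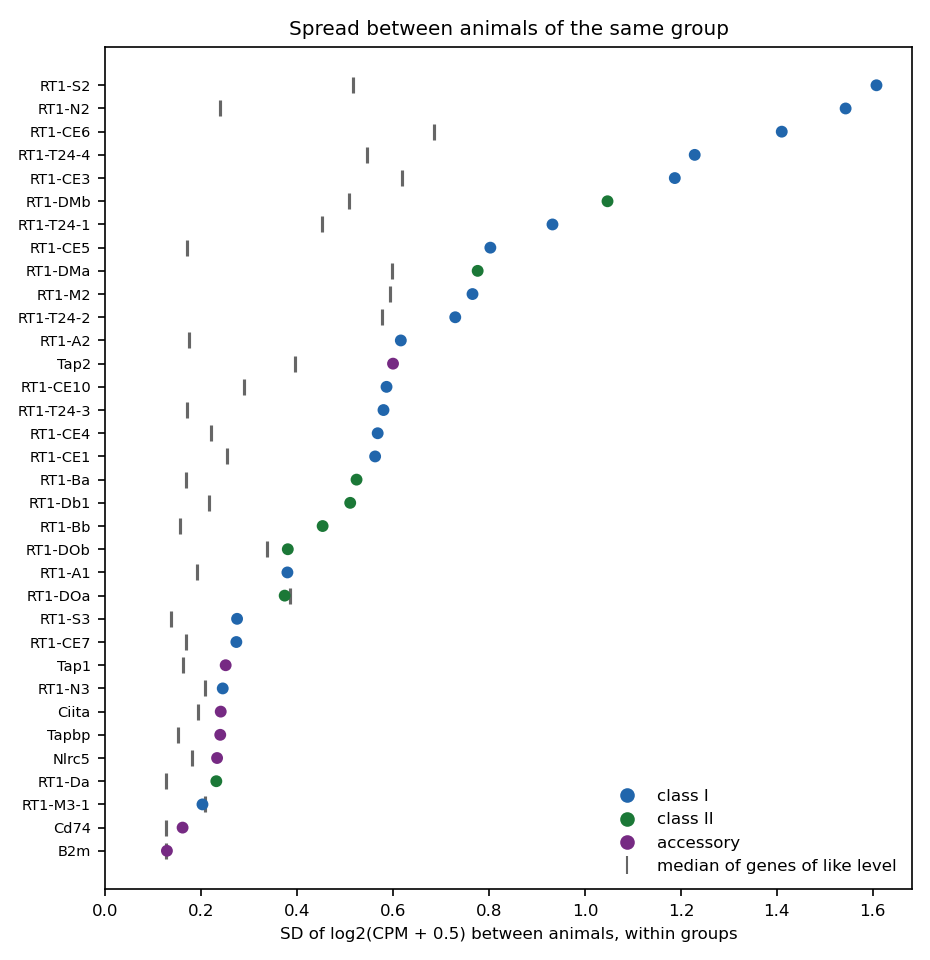
SD of log2(CPM + 0.5) between rats of a group for each member, as a point coloured by class, with a grey tick at the median of genes of like level. RT1-S2 at 1.61 and RT1-N2 at 1.54 lie far right of their ticks, and B2m at 0.13 lies on its tick.

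No RT1 gene met the rule for a gene divided by animal, which asks for a gap of at least 1 in log2(CPM + 0.5) between neighbouring rats with at least 6 on each side and an upper median of at least 5 CPM. With a pseudocount of 0.1 in place of 0.5, RT1-S2 met it, with 0 counts in 8 lungs on the lower side and a median of 7.0 CPM in the 61 others. The lowest of those 61 had 0.206 CPM, so that gap lay between no count and very few counts. With 0.5 the largest gap of RT1-S2 was 0.595, with 25 and 44 lungs on its sides. RT1-CE6 came closest by gap, at 0.99. RT1-S2, which had up to 78 counts, had at most 3 counts, not detectable at this depth, in 19 of the 69 deeper libraries, 8 of 33 from exposed and 11 of 36 from air rats. These were 12 of 24 lungs at day 1 and 7 of 45 at days 7 and 27, so at the shallower day more lungs fall under that limit. At days 7 and 27 the median of the lungs above 3 counts was 7.29 CPM. RT1-CE6 had no count in 40 of 69 lungs.

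RT1-N2 was near absent in 5 rats, each of another group. It had 0 counts in 200 ug/m3 animal 60 at day 1, 1 count in 1000 ug/m3 animal 13 at day 7, 3 counts in air L animal 65 at day 7, 3 counts in 1000 ug/m3 animal 21 at day 27 and 10 counts in air L animal 83 at day 27. The median over the 69 lungs was 29.4 CPM. In the same order these rats had 24, 11.5, 12.3, 15.7 and 15.9 CPM of RT1-S2, the highest of their group in 5 of 5, beside a median of 5.90 CPM over the 69 lungs. Their RT1-T24-3 was 19, 32.8, 21.9, 21.3 and 20.4 CPM, the lowest of their group in 5 of 5, beside a median of 66 CPM. RT1-CE6 had no count in all 5. These rats were picked by RT1-N2, so the values are a description.

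**Figure D4:**
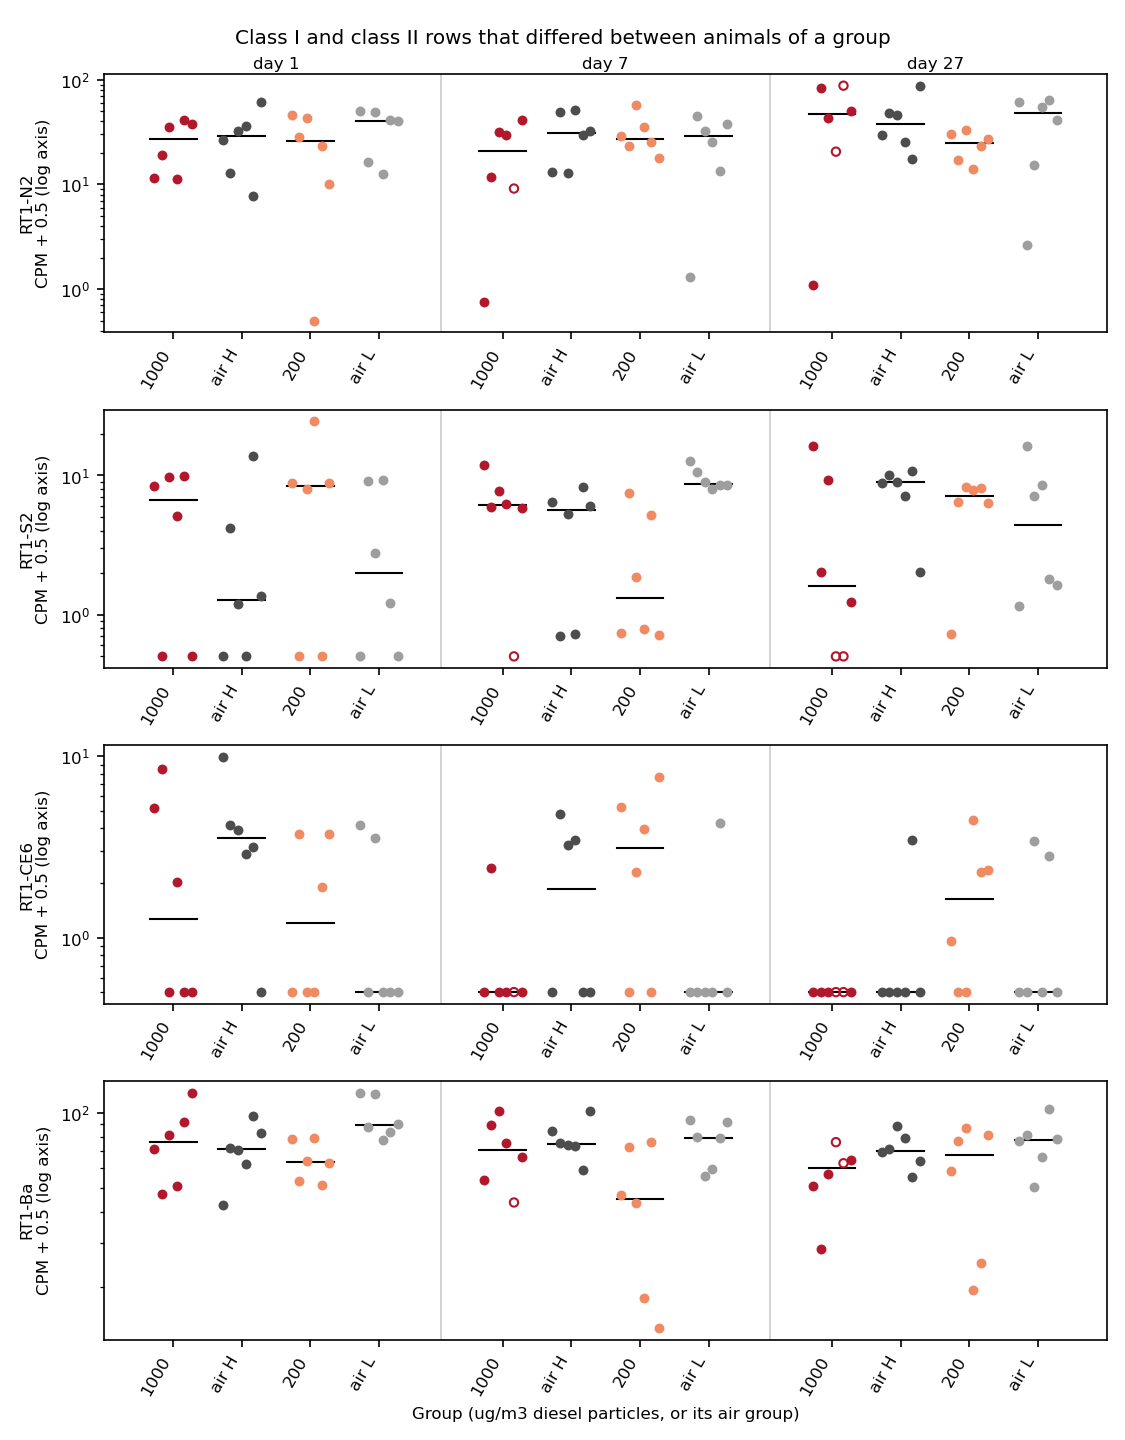
Level of RT1-N2, RT1-S2, RT1-CE6 and RT1-Ba in each rat, as CPM + 0.5 on a log axis, by group and day, with an open circle for a shallow library and a line at the group median. RT1-N2 is close to 0 in 5 rats, and RT1-Ba lies at 13.2 to 28.0 CPM in 5 others.

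RT1-Ba was at or under 50% of its median of 73.1 CPM in 5 rats. They were 200 ug/m3 animals 76 and 78 at day 7, with 17.6 and 13.2 CPM, 1000 ug/m3 animal 22 at day 27, with 28.0 CPM, and 200 ug/m3 animals 92 and 93 at day 27, with 18.9 and 24.6 CPM. Their RT1-Bb was low also, at 28.6, 29.9, 39.7, 34.5 and 34.9 CPM in the same order. Their RT1-Db1 was 47.9, 54.6, 70.2, 43.9 and 45.7 CPM, above the median of 27.2 CPM over the 69 lungs, and RT1-A2 was 64.3 to 158 CPM in them, beside a median of 52.7 CPM. RT1-Da, at 279 to 317 CPM, Cd74, at 910 to 1084 CPM, and Ciita, at 34.5 to 41.4 CPM, were within the range of the other lungs. All 5 rats were exposed; they were picked by their RT1-Ba level and no comparison was made between them and the rest.

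Across the 69 deeper lungs, 15 relations between members, chosen after their values were seen, were computed on log2 levels centred on their group, with p from permutation within groups (100000 draws, smallest possible 1e-05) and adjusted over the 15. RT1-Ba and RT1-Bb, neighbours in the genome, went together with r = 0.90 and rho = 0.90 (adjusted permutation p = 2.5e-05 and 3.7e-05), and r = 0.89 without the 2 most distant lungs. Within days 1, 7 and 27 r was 0.95, 0.88 and 0.96. RT1-Db1 and RT1-A2 had r = 0.66 and rho = 0.67 (adjusted permutation p = 2.5e-05 and 3.7e-05), 0.59 without 2 lungs, and 0.83, 0.41 and 0.75 within the days. RT1-Db1 against RT1-Ba had r = −0.46 and rho = −0.39 (adjusted permutation p = 0.000244 and 0.00412), −0.44 without 2 lungs, and −0.21, −0.55 and −0.70 within the days.

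RT1-Ba and RT1-A2 had r = −0.53 and rho = −0.46 (adjusted permutation p = 0.0004 and 0.000712), −0.52 without 2 lungs, and −0.35, −0.36 and −0.78 within days 1, 7 and 27. RT1-CE5 and RT1-CE4 had r = −0.59 and rho = −0.59 (adjusted permutation p = 2.5e-05 and 5e-05), −0.56 without 2 lungs, and −0.45, −0.79 and −0.64 within the days. Their spans overlap in GRCr8, but the submitters' notes name the build Rnor_6.0, whose spans were not examined here. Whether reads that fit both genes were counted for one, for the other or for neither is not known. The part of such reads in this relation was not tested, and their shares cannot be told apart from this count table. In GRCr8 the spans of 19 members overlap another gene and of 9 another member, among them RT1-S2 with RT1-O1, and RT1-T24-2, RT1-T24-3 and RT1-T24-4 with each other. How the counting treated reads of more than 1 place is not given in the sources used here, so levels of single RT1 genes are uncertain.

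**Figure D5:**
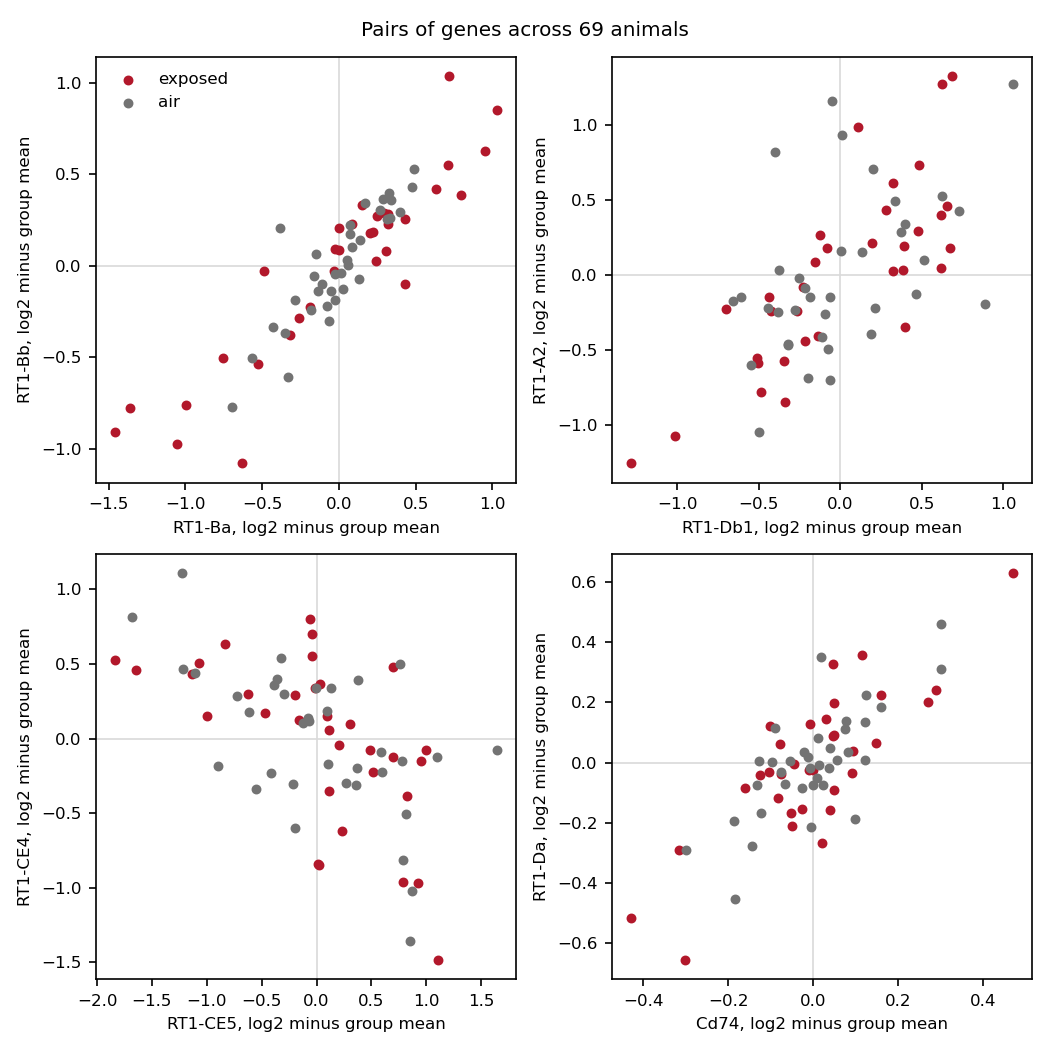
Levels of pairs of members in each of the 69 deeper lungs, centred on their group, on a log2 scale, with a red point for an exposed rat and a grey point for an air rat. RT1-Ba and RT1-Bb go together with r = 0.90, and RT1-CE5 and RT1-CE4 run against each other with r = −0.59.

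The class II chaperone and the D alpha chain, Cd74 and RT1-Da, had r = 0.79 and rho = 0.68 (adjusted permutation p = 2.5e-05 and 3.7e-05), 0.72 without 2 lungs, and 0.80, 0.66 and 0.82 within days 1, 7 and 27. Ciita had r = −0.05 with Cd74 (adjusted permutation p = 0.71) and 0.08 with RT1-Da (adjusted permutation p = 0.546). On the class I side, Tapbp and Tap1 had r = 0.70 and rho = 0.64 (adjusted permutation p = 2.5e-05 and 3.7e-05), 0.65 without 2 lungs, and 0.71, 0.75 and 0.61 within the days. Nlrc5 and Tap1 had r = 0.60 and rho = 0.51 (adjusted permutation p = 2.5e-05 and 6.4e-05), 0.55 without 2 lungs, and 0.63, 0.50 and 0.68 within the days. Nlrc5 with B2m had r = 0.39 and rho = 0.35 (adjusted permutation p = 0.00393 and 0.0126), and with RT1-S3 0.30 and 0.28 (adjusted permutation p = 0.0206 and 0.0418).

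The class I and class II sums had r = −0.20 and rho = −0.17 (adjusted permutation p = 0.154 and 0.256). The summed B cell markers and Cd74 had r = −0.25 and rho = −0.28 (adjusted permutation p = 0.101 and 0.0485), and r was −0.45, −0.14 and −0.03 within days 1, 7 and 27, so the relation was not held by each day.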

How the data were processed

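Raw counts per gene, as whole numbers, were deposited by the authors for 72 rat lung libraries in one table. Per the labels' protocols, ribosomal RNA was removed and a stranded total RNA kit was used. HISAT2 2.1.0, HTSeq 0.6.1 and the build Rnor_6.0 are named in the submitters' processing notes, beside Trimmomatic 0.35, SAMtools 1.8 and bcl2fastq 2.19, with no role or order. What is not given in the sources used here is the annotation release, the strand setting and how reads with several matches were treated. How reads shared by near-identical RT1 genes were divided is therefore unknown here.

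Counts were tested in edgeR 4.0.16 (limma 3.58.1, R 4.3.3) with TMM factors, filterByExpr by group and the robust quasi-likelihood F test. The 4 groups of a day were fitted together, and all 72 libraries for the comparisons over days and of all exposed with all air lungs. P-values were adjusted over all genes tested, with a threshold of 0.05. DESeq2 1.42.0, another normalization, other filters, other sets of libraries and libraries left out in turn were the alternatives. Levels are CPM with TMM factors; log values carry a pseudocount of 0.5. Libraries under 500000 counts were called shallow, left out of relations and of counts of rats, and kept in the fits. Intervals are at 95%. The fitting steps were tested on simulated counts.

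Every member called in a comparison is named, and otherwise the one with the smallest p; RT1-A and RT1-CE genes of at least 20 CPM on average, the classical class II genes and the accessory genes are given in the plot of fold changes whatever their p. Of the 15 relations between genes, 1 is not reported here. The members and lists were chosen with earlier results of these data known. Protein identity between members was planned and is not used here; shared promoter runs take its place. All 46 members matched the RefSeq gene table, 42 of them on chromosome 20, and 39 had a promoter window. Python 3.11.15, pandas 2.3.3, numpy 2.4.6, scipy 1.17.1 and matplotlib 3.10.9 were used for the rest.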

Additional observations from a re-analysis of the deposited data

Results flagged for a closer look

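In 228 groups of 6 rats, for the members given in every comparison and the class sums, 1 rat stood apart from the others of its group by Dixon's criterion at 95% in 22, and chance alone flags about 5% of groups. Of the 22, 4 were in shallow libraries. Among the class I genes, RT1-A1 was 15.6 CPM in 200 ug/m3 animal 76 at day 7, where the others had 37.6 to 59.4. RT1-A2 was 117 CPM in air L animal 84 at day 27, where the others had 36.7 to 47.6. RT1-CE1 was 0 in the shallow 1000 ug/m3 animal 37 at day 7, where the others had 19.1 to 28.1. RT1-CE4 was 17.9 CPM in air L animal 69 at day 7, where the others had 34.5 to 48.6, and 10.2 CPM in 200 ug/m3 animal 89 at day 27, where the others had 27.9 to 48.2. RT1-CE5 was 22.4 CPM in 200 ug/m3 animal 60 at day 1, where the others had 77.7 to 162, and RT1-CE7 was 39.96 CPM in 1000 ug/m3 animal 5 at day 1, where the others had 56.4 to 66.4. The class I sum was 489 CPM in air H animal 20 at day 27, where the others had 650 to 765.

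Among the class II genes, RT1-Db1 was 20.4 CPM in 200 ug/m3 animal 77 at day 7 (others 39.5 to 55.2), 47.7 CPM in air H animal 33 at day 7 (others 19.3 to 25.8), 12.5 CPM in the shallow 1000 ug/m3 animal 45 at day 27 (others 37.9 to 70.2) and 30.9 CPM in air L animal 86 at day 27 (others 19.5 to 21.5). Cd74 was 1196 CPM in 200 ug/m3 animal 74 at day 7 (others 910 to 973), 793 CPM in air H animal 9 at day 7 (others 890 to 953) and 760 CPM in 200 ug/m3 animal 89 at day 27 (others 937 to 1015).

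Among the class I accessory genes, Tap1 was 76.9 CPM in 1000 ug/m3 animal 30 at day 1 (others 55.0 to 58.6) and 48.9 CPM in 200 ug/m3 animal 60 at day 1 (others 78.4 to 96.8). Tap2 was 0 in the shallow 1000 ug/m3 animal 37 at day 7 (others 3.29 to 6.38). Tapbp was 51.8 CPM in the same animal (others 106 to 137) and 53.7 CPM in 200 ug/m3 animal 76 at day 7 (others 89.5 to 108). Nlrc5 was 34 CPM in 200 ug/m3 animal 60 at day 1 (others 54 to 55.5) and 95.9 CPM in air L animal 52 at day 1 (others 48.1 to 58.4).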

How the results depend on the processing

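Of the counts of members called, class balances and divided genes, 160 values under alternatives were labelled the same and 24 moved. A count of members that differed from the reported one by only a small factor was also labelled the same. Of gene and relation values, 2938 were labelled the same, 82 lost their call, 28 gained one and 0 were labelled reversed. For gene values a reversal was looked for only where the gene was called under either setting. An uncalled fold change that changed sign was labelled the same. In the comparisons of exposed with air lungs, 46 counts were the same and 3 moved. With only the groups compared in the fit, the count was 1 for 200 ug/m3 against air L at day 1, 7 for air H against air L at day 7 and 3 for 1000 against 200 ug/m3 at day 7. Over all genes that setting called 0.0511%, 29.7% and 22.4%, in the same order. With both air groups as the control the count was 1 for 1000 ug/m3 and 3 for 200 ug/m3 at day 7, against 9.37% and 8.26% of all genes. Air H against air L at day 27 gave 1 with a filter of at least 1 CPM in 6 libraries, with no filter and in DESeq2, against 12.7%, 7.12% and 15% of all genes. Leaving out 1 rat gave 0 to 5 members for air H against air L at day 1, 2 to 5 at day 7 and 1 to 2 at day 27, and 4 to 10 for 1000 against 200 ug/m3 at day 7. Over all genes those fits called 0.0161% to 7%, 21.2% to 27.1%, 10% to 14% and 22.8% to 29.2%, in the same order. With a pseudocount of 0.1, 1 gene was divided by animal. The cause of these shifts was not tested. No gene was divided at 0.5, so leaving such genes out of the class I sum gave no value. No paired analysis was possible because animal numbers differ between all groups. The 2 series of animal numbers in the H groups, entered as a block, left 0 members called for 1000 ug/m3 against air H on days 1, 7 and 27. Members under 1 CPM limit what can be seen, most at day 1, where libraries are shallowest.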
